A study of Rattus norvegicus with 20 samples.

Results

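Described here are 10 genes for transporters of the proximal tubule, the nephron segment that takes back most of the filtered glucose, phosphate and sodium. Their symbols were Slc5a1, Slc5a2, Slc2a2, Slc5a12, Slc34a1, Slc34a3, Slc20a2, Slc9a3, Slc4a4 and Slc13a3. They were chosen by symbol in the deposited tables and carried between tables by Ensembl identifier. All 10 were found among the 32521 genes listed in both tables, and all 10 passed the filter on low values that left 13392 genes in both. The 20 samples were RNA from whole kidneys of male wild-type (WT) Wistar rats, 10 to 12 weeks old, sequenced after 28 days of subcutaneous infusion by osmotic minipump. The groups were cyclosporine A (n = 4), saline vehicle (n = 4), tacrolimus (dosed towards 3.5 ng/ml in plasma at trough, n = 6) and its vehicle of 25% DMSO and 75% PEG500 (DMSO/PEG vehicle, n = 6). Cyclosporine A and tacrolimus are calcineurin inhibitors, immunosuppressants given after transplantation. No group of untreated rats was part of these tables. The labels number the libraries of a group but do not tie each to an animal, so the p-values measure the spread between these samples. Drug, vehicle and table cannot be told apart where the drugs are set side by side.

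Glucose crosses the apical membrane of proximal cells with sodium, through SGLT2 (Slc5a2) in the early segments and SGLT1 (Slc5a1) in the late straight segment, and leaves through the basolateral facilitative carrier GLUT2 (Slc2a2). Phosphate enters with sodium through NaPi-IIa (Slc34a1), NaPi-IIc (Slc34a3) and PiT-2 (Slc20a2), the first and second of which are under control of parathyroid hormone and FGF23. Sodium enters in exchange for protons through NHE3 (Slc9a3), bicarbonate leaves with sodium through NBCe1 (Slc4a4), and lactate and dicarboxylates are carried by SMCT2 (Slc5a12) and NaDC3 (Slc13a3).

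The values are FPKM, fragments per kilobase of gene length, scaled to the fragments of the library. The cyclosporine A table was scaled to all assigned fragments, mitochondrial ones included, and these libraries differed in mitochondrial share. That share was 59.8% ± 7.97 (SD, n = 4) with saline vehicle and 84.7% ± 4.68 (SD, n = 4) with cyclosporine A (2-sided exact permutation p = 0.0286, as small as 4 against 4 can give, and 0.0857 adjusted over 6 library measures). It was 11.9% and 12.4% in the groups of the tacrolimus table (exact permutation p = 0.606). Levels of the cyclosporine A table are therefore given as rescaled FPKM, the deposited FPKM divided by 1 median-of-ratios factor per library. On FPKM as deposited the median gene of that table had a log2 change of -0.89 with cyclosporine A, and on rescaled FPKM it was close to 0. Nuclear fragments numbered 2905876 to 6549317 per cyclosporine A library and 10283998 to 17256836 per saline library, so the low genes below rest on few fragments. Cyclosporine A replicate 4 had the highest mitochondrial share, 90.8%, and the fewest nuclear fragments. In these bulk samples, fewer cells of a type and less RNA per cell cannot be told apart.

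With cyclosporine A, Slc5a2 rose and no member fell on rescaled FPKM. The 3 members whose groups did not overlap, Slc5a2, Slc34a3 and Slc5a12, were all higher in every cyclosporine A library than in any saline library. They were the transporters of early glucose uptake, phosphate uptake and lactate uptake, and in saline kidneys they were 3 of the 4 members with the lowest levels. The abundant members Slc34a1 and Slc13a3 overlapped between groups. Of 13455 genes tested, 0.609% passed a limma adjusted p of 0.05 (0.327% higher and 0.282% lower), and of the 10 members 1 was higher and 0 lower. Groups that did not overlap, with cyclosporine A higher, were seen for 4.81% of all genes and for 3 of the 10 members, and with cyclosporine A lower for 6.11% of all genes and 0 members (10.9% of all genes in either direction). An unadjusted p under 0.05 was reached by 4 members and by 16.2% of all genes. The median log2 change of the members was -0.018, with 4 above 0 and 6 below.

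**Figure D1:**
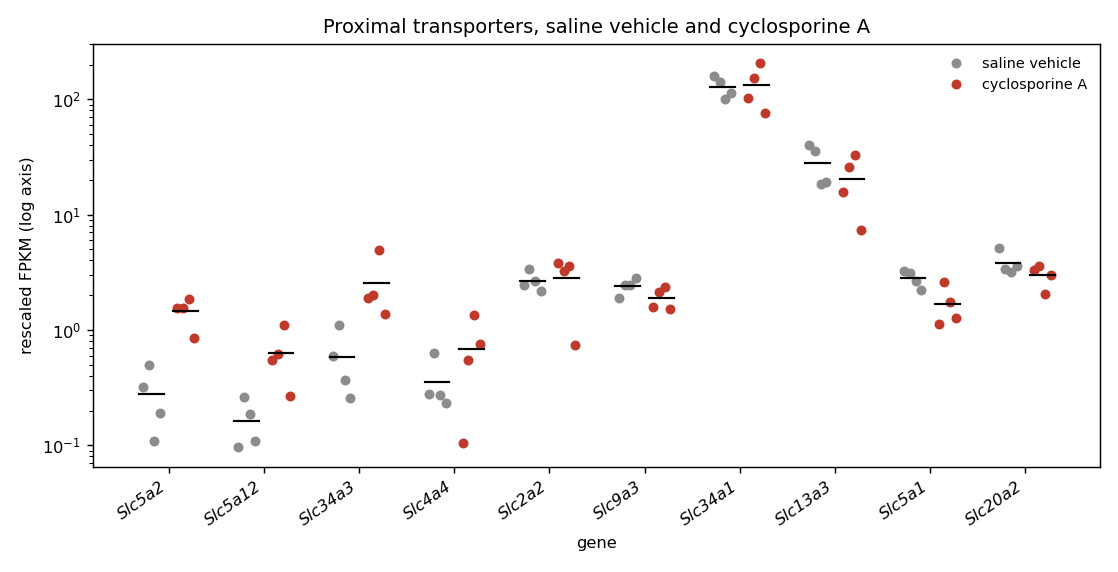
Rescaled FPKM on a log axis for the 10 transporters in each saline (grey) and cyclosporine A (red) library, with points in replicate order and a black line at the group mean. Slc5a2, Slc5a12 and Slc34a3 are the genes at the left whose red points all lie above the grey ones, and the cyclosporine A point of 0.733 for Slc2a2 is replicate 4.

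Promoter sequences are shown for these 3 members and, for contrast, for Slc34a1, the member with the highest level in both tables. They come from RefSeq on the GRCr8 assembly, another build than the deposited positions, and run from 250 bases before to 50 bases after the annotated start. A promoter was found for 9 of the 10 members, all except Slc20a2. Capitals mark any match, on either strand, to GTTAAT (a half-site of HNF1), CAAAGT (a half-site of HNF4) or TATAAA (the TATA box).
Slc5a2, chr1:192277371-192277670, plus strand: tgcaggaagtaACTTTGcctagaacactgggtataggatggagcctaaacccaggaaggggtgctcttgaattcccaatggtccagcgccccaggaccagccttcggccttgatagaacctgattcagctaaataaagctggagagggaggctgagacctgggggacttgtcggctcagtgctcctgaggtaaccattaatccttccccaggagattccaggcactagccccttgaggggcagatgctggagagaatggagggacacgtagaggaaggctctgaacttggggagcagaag
Slc34a3, chr3:28447948-28448247, minus strand: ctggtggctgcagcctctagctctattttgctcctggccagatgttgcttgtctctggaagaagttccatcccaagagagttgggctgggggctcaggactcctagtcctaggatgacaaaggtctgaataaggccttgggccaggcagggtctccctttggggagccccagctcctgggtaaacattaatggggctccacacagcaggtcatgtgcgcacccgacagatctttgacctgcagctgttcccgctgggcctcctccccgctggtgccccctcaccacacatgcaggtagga
Slc5a12, chr3:117633637-117633936, plus strand: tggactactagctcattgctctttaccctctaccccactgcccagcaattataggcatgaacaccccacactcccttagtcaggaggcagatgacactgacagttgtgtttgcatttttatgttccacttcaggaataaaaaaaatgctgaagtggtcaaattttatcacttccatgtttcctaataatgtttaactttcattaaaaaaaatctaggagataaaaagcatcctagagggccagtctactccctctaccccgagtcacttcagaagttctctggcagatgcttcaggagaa
Slc34a1, chr17:9238934-9239233, minus strand: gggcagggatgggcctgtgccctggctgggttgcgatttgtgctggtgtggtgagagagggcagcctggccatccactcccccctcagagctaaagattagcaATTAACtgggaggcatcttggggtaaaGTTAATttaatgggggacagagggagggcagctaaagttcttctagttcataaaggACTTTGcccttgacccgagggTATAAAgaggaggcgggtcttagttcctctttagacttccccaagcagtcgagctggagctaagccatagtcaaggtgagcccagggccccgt

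The Slc34a1 promoter held 4 matches. They were the HNF1 letters at -147 (as ATTAAC) and -120, the HNF4 letters at -64 (as ACTTTG) and the TATA letters at -43, counted from the start site. The Slc5a2 promoter held 1 match, the HNF4 letters at -239 (as ACTTTG), and the windows of Slc34a3 and Slc5a12 held none. Of the other 5 windows only that of Slc4a4 held a match, the HNF4 letters at -189. Among all 33469 promoters of this length, 7.45% held the HNF1 letters, 14.8% the HNF4 letters and 14.2% the TATA letters. These matches are descriptions of the letters, and no factor was measured on them.

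Among the glucose carriers, Slc5a2 rose with cyclosporine A. Slc5a2 (ENSRNOG00000020039) lies on chromosome 1 from 199682688 to 199688809 on the plus strand, in the positions of the deposited tables, whose processing notes name rn6. Its level in saline replicates 1 to 4 was 0.318, 0.495, 0.108 and 0.191 rescaled FPKM. In cyclosporine A replicates 1 to 4 it was 1.55, 1.55, 1.84 and 0.843 rescaled FPKM. Every cyclosporine A library was above every saline library, and replicate 4 was the lowest of the treated ones. The means were 0.278 ± 0.168 (SD, n = 4) and 1.45 ± 0.424 (SD, n = 4), a ratio of 5.20. The change in log2(rescaled FPKM + 1), a scale that understates changes of low genes, was 0.93 (SE 0.16, 95% interval 0.58 to 1.28, limma adjusted p = 0.0385).

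These Slc5a2 levels rested on 11 to 46 fragments per saline library and 24 to 91 per cyclosporine A library. On FPKM as deposited the means were 0.440 and 0.997, the groups overlapped, and the log2 change was 0.45 (limma adjusted p = 0.0284). The call was lost with a pseudocount of 0.1 (limma adjusted p = 0.0528), without the filter on low values (0.0958), with the mitochondrial share as a covariate (1.00, log2 change 1.14), and on leaving out any 1 library other than cyclosporine A replicate 4 (0.0573 to 0.129). A replicate block ended the call as well, with the value given under the processing below. The 3′ end of Slc5a2 overlaps RGD1310127 on the opposite strand (199687778 to 199716205). No strand setting is given in the sources used here, so fragments of the shared stretch cannot be assigned to either gene. RGD1310127 itself was at 1.66 ± 0.510 (SD, n = 4) rescaled FPKM with saline and 2.21 ± 0.439 (SD, n = 4) with cyclosporine A, a log2 change of 0.28 (limma adjusted p = 0.441).

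Slc5a1, the carrier of the late segment (ENSRNOG00000017775, chromosome 14, 82909981 to 82975263, minus strand), did not pass the test. Its level was 3.26, 3.13, 2.65 and 2.21 rescaled FPKM in saline replicates 1 to 4. It was 1.12, 2.59, 1.75 and 1.27 rescaled FPKM in cyclosporine A replicates 1 to 4. Only cyclosporine A replicate 2 lay inside the saline range, and the other treated libraries were below it. The log2 change was -0.53 (SE 0.19, limma unadjusted p = 0.0179, adjusted p = 0.202).

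Slc2a2, the basolateral exit carrier (ENSRNOG00000011875, chromosome 2, 114413410 to 114445395, plus strand), showed no shift of the group as a whole. Its level was 2.44, 3.35, 2.66 and 2.16 rescaled FPKM with saline. With cyclosporine A it was 3.80, 3.26, 3.55 and 0.733 rescaled FPKM. Treated replicates 1 and 3 were above the saline range, replicate 2 was inside it, and replicate 4, with 21 fragments, was far below it. The log2 change was -0.026 (SE 0.30, limma adjusted p = 0.978), and it was 0.32 without cyclosporine A replicate 4, which did not pass either.

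Ratios of 2 genes within a library do not depend on the scaling between libraries. Slc5a1 over Slc5a2 was 10.3, 6.31, 24.5 and 11.6 in saline replicates 1 to 4 as a ratio of FPKM. It was 0.722, 1.67, 0.953 and 1.51 in cyclosporine A replicates 1 to 4. The late carrier thus outweighed the early one in every saline library, by a factor that no treated library reached. Slc2a2 over Slc5a2 ran from 6.77 to 24.6 in saline libraries and from 0.869 to 2.45 in cyclosporine A libraries, with no overlap. Both ratios have Slc5a2 as denominator, at 11 to 46 fragments per saline library, so the second is not a separate result. In the tacrolimus table the order was the other way round, with Slc5a1 over Slc5a2 at 0.0688 to 0.0787 in DMSO/PEG vehicle and 0.0458 to 0.0837 with tacrolimus, and the groups overlapped.

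**Figure D2:**
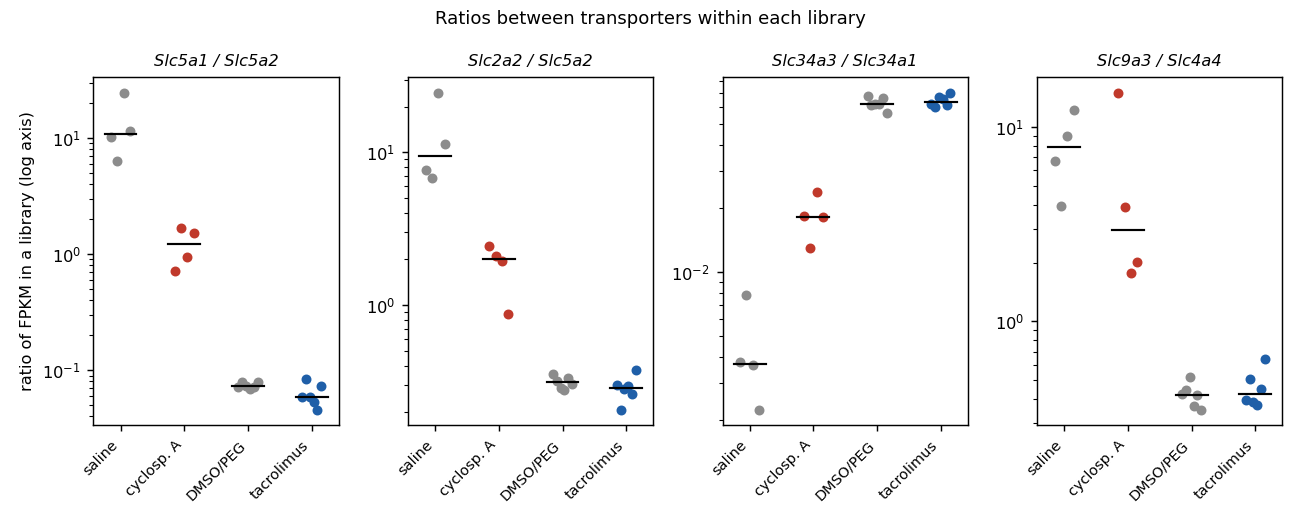
Ratios of FPKM between 2 transporters within each library, on log axes, with 1 panel per pair, points for libraries and a black line at the group median. Slc5a1 over Slc5a2 has a median of 10.9 with saline and 1.23 with cyclosporine A, and lies under 0.1 in both groups of the tacrolimus table.

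Of the phosphate carriers, Slc34a3 did not overlap between groups but missed the adjusted threshold. Slc34a3 (ENSRNOG00000010451, chromosome 3, 2448381 to 2453933, minus strand) was at 0.594, 1.09, 0.365 and 0.255 rescaled FPKM in saline replicates 1 to 4. It was at 1.90, 1.99, 4.93 and 1.37 rescaled FPKM in cyclosporine A replicates 1 to 4, all above the saline range. The lowest treated library stood above the highest saline one by a narrow margin, and replicate 3 was the highest. The ratio of means was 4.42 and the log2 change 1.10 (SE 0.28, 95% interval 0.48 to 1.73, limma adjusted p = 0.0973). On FPKM as deposited the groups overlapped (log2 change 0.47, limma adjusted p = 0.112). The fragments behind it numbered 28 to 95 with saline and 39 to 244 with cyclosporine A.

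Slc34a1, the main phosphate carrier of the adult kidney (ENSRNOG00000015262, chromosome 17, 9747752 to 9762813, minus strand), was at 158, 140.2, 100.5 and 113 rescaled FPKM with saline. With cyclosporine A it was at 103, 153, 206 and 75.6 rescaled FPKM. The treated libraries spread on both sides of the saline ones, and replicate 4 was again the lowest. The log2 change was -0.011 (SE 0.28, 95% interval -0.64 to 0.62, limma adjusted p = 0.990). Slc34a3 over Slc34a1 was 0.00376, 0.00781, 0.00363 and 0.00225 in saline replicates 1 to 4 as a ratio of FPKM. It was 0.0184, 0.0131, 0.0240 and 0.0181 in cyclosporine A replicates 1 to 4, all above the saline range. In the tacrolimus table that ratio was 0.0567 to 0.0679 in vehicle and 0.0603 to 0.0702 with tacrolimus.

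Slc20a2, the member of the other phosphate carrier family (ENSRNOG00000019490, chromosome 16, 74317899 to 74408030, minus strand), was at 5.12, 3.39, 3.17 and 3.57 rescaled FPKM with saline. It was at 3.32, 3.56, 2.05 and 2.97 rescaled FPKM with cyclosporine A, and the groups overlapped. The log2 change was -0.27 (SE 0.17, limma adjusted p = 0.477).

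Slc5a12, the low-affinity lactate carrier (ENSRNOG00000028008, chromosome 3, 101791337 to 101833044, plus strand), had the lowest level of the members in saline kidneys. It was at 0.0957, 0.261, 0.186 and 0.109 rescaled FPKM in saline replicates 1 to 4. It was at 0.552, 0.616, 1.10 and 0.266 rescaled FPKM in cyclosporine A replicates 1 to 4. The groups did not overlap, but the lowest treated library, replicate 4 with 12 fragments, lay next to the highest saline one. The ratio of means was 3.88 and the log2 change 0.47 (SE 0.14, limma unadjusted p = 0.00887, adjusted p = 0.155). On FPKM as deposited the groups overlapped, with a log2 change of 0.19 (limma adjusted p = 0.199).

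Neither sodium and acid-base carrier passed the test with cyclosporine A. Slc9a3 (ENSRNOG00000015159, chromosome 1, 31734327 to 31777070, minus strand) was at 1.87, 2.48, 2.46 and 2.84 rescaled FPKM with saline and at 1.56, 2.12, 2.37 and 1.53 with cyclosporine A. The groups overlapped, and the log2 change was -0.24 (SE 0.15, limma adjusted p = 0.473). Slc4a4 (ENSRNOG00000003134, chromosome 14, 20479323 to 20920286, minus strand) was at 0.281, 0.630, 0.272 and 0.233 rescaled FPKM with saline and at 0.104, 0.546, 1.34 and 0.751 with cyclosporine A. Its treated libraries ran from below to above the saline range, with 8 to 127 fragments each. Slc9a3 over Slc4a4, as a ratio of FPKM within a library, was 3.93 to 12.2 with saline and 1.77 to 15.01 with cyclosporine A, and the groups overlapped, as they did with tacrolimus (0.352 to 0.516 in vehicle and 0.373 to 0.644 with the drug). The log2 change of Slc4a4 was 0.27 (SE 0.21, limma adjusted p = 0.559) on rescaled FPKM and -0.11 on FPKM as deposited.

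Slc13a3, the basolateral dicarboxylate carrier (ENSRNOG00000019118, chromosome 3, 162084315 to 162147393, minus strand), was at 40.2, 35.4, 18.3 and 19.3 rescaled FPKM with saline. With cyclosporine A it was at 15.7, 26.0, 32.7 and 7.42 rescaled FPKM. Both groups spread widely and overlapped, and replicate 4 was once more the lowest. The log2 change was -0.55 (SE 0.42, 95% interval -1.48 to 0.38, limma adjusted p = 0.565).

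The scale decided how these members read as a group. On FPKM as deposited 7 of the 10 passed a limma adjusted p of 0.05, Slc5a2 higher and Slc5a1, Slc2a2, Slc34a1, Slc20a2, Slc9a3 and Slc13a3 lower. On that scale 81.1% of all 13455 genes passed (0.193% higher and 80.9% lower), so a lower call there is the state of most genes. The groups of the 6 lower members did not overlap, as was so for 67.9% of all genes with cyclosporine A lower, and none stood apart with it higher (0.119% of all genes). The median log2 change of the members was -1.01 there, against -0.89 for all genes. Slc5a2, Slc34a3 and Slc5a12 kept a log2 change above 0 on the deposited scale, and they also stood apart without overlap on FPKM scaled to the nuclear fragments alone, as did 6.95% of all genes with cyclosporine A higher.

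**Figure D3:**
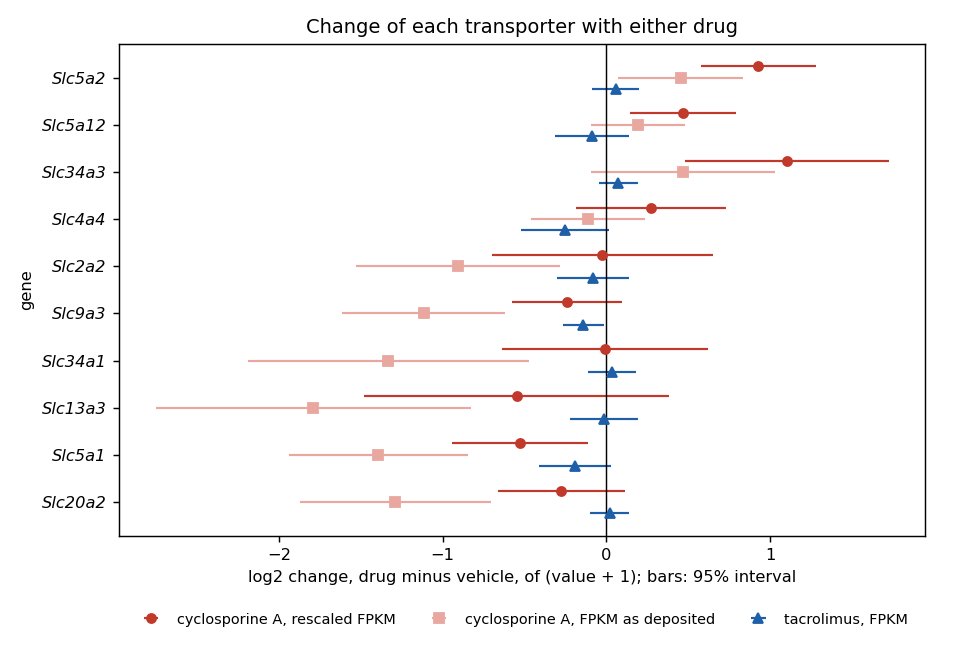
Log2 change with its 95% interval for each transporter: cyclosporine A on rescaled FPKM (red circles), cyclosporine A on FPKM as deposited (pale squares) and tacrolimus on FPKM (blue triangles). Slc5a2 lies at 0.93, 0.45 and 0.056 in that order, and Slc5a1, Slc2a2, Slc34a1, Slc20a2, Slc9a3 and Slc13a3 lie below 0 on the deposited scale.

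With tacrolimus no member passed the test. Against its vehicle, 0 of the 10 passed a limma adjusted p of 0.05 (0.303% of 15493 genes did), 1 reached an unadjusted p under 0.05 (8.58% of all genes did), and all 10 overlapped between groups (0.975% of all genes did not). The log2 changes in FPKM ran from -0.25 to 0.074, with a median of -0.048. The 95% intervals were narrower than with cyclosporine A: that of Slc5a2 ran from -0.088 to 0.20 and that of Slc34a1 from -0.11 to 0.18.

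Slc5a2 had a lowest, median and highest level of 132, 141 and 161 FPKM in the 6 vehicle libraries and of 130.01, 152 and 163 FPKM with tacrolimus. The groups covered nearly the same range, and the log2 change was 0.056 (SE 0.067, limma adjusted p = 0.900). Slc34a3 was at 87.0, 98.1 and 104 FPKM in vehicle and at 93.5, 103 and 107 FPKM with tacrolimus (log2 change 0.074, SE 0.056, limma adjusted p = 0.799). Slc5a12 was at 52.1, 74.2 and 80.2 FPKM in vehicle and at 57.6, 68.1 and 76.3 FPKM with tacrolimus (log2 change -0.088, SE 0.10, limma adjusted p = 0.900). The 3 members that stood apart with cyclosporine A thus overlapped here, at levels of 52.1 FPKM or more in every library.

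Slc34a1 was the most abundant member, at 1463, 1535 and 1634 FPKM in vehicle and 1531, 1571 and 1619 FPKM with tacrolimus. Slc13a3 was at 343, 364 and 445 FPKM in vehicle and 314, 371 and 453 FPKM with tacrolimus. Neither moved by more than its spread, with log2 changes of 0.033 and -0.013 (limma adjusted p = 0.943 and 0.988). Slc4a4 was at 84.6, 120.5 and 128 FPKM in vehicle and 69.7, 98.9 and 116 FPKM with tacrolimus, and its log2 change of -0.25 (SE 0.12, limma adjusted p = 0.617) was the lowest of the members. Slc9a3 was at 43.7, 45.5 and 52.6 FPKM in vehicle and 39.4, 44.1 and 44.9 FPKM with tacrolimus. Its log2 change of -0.14 (SE 0.059) was the one with an unadjusted limma p under 0.05 (0.0333, adjusted p = 0.504).

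The remaining members were lower in level and overlapped as well. Slc2a2 was at 39.8, 43.9 and 50.3 FPKM in vehicle and 30.5, 44.1 and 48.5 FPKM with tacrolimus (log2 change -0.082, SE 0.10, limma adjusted p = 0.901). Slc20a2 was at 10.6, 11.3 and 12.1 FPKM in vehicle and 10.6, 11.3 and 13.2 FPKM with tacrolimus (log2 change 0.020, SE 0.056, limma adjusted p = 0.962). Slc5a1 was at 9.85, 10.3 and 12.7 FPKM in vehicle and 7.37, 8.90 and 12.4 FPKM with tacrolimus. For Slc5a1, 5 of the 6 tacrolimus libraries lay below the vehicle range, and its log2 change was -0.19 (SE 0.10, limma adjusted p = 0.650).

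**Figure D4:**
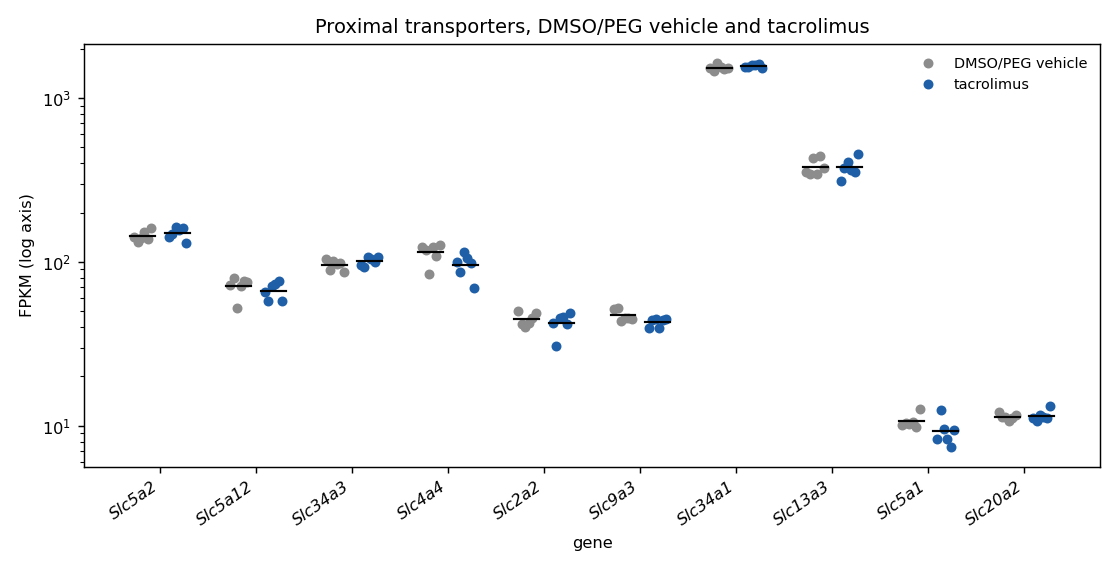
FPKM on a log axis for the 10 transporters in each DMSO/PEG vehicle (grey) and tacrolimus (blue) library, with points in replicate order and a black line at the group mean. Grey and blue points overlap for every gene, from Slc5a1, at 7.37 to 12.7 FPKM, to Slc34a1, at 1463 to 1634 FPKM.

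The difference between the drugs, taken as the effect of cyclosporine A less that of tacrolimus, passed the threshold for Slc5a2 alone among the 10 members. The difference was 0.87 in log2 (SE 0.17, 95% interval 0.50 to 1.24, adjusted p = 0.0280 from the 2 limma fits), where 1.61% of 13392 genes passed (0.851% higher and 0.762% lower with cyclosporine A). An unadjusted p under 0.05 was reached by 4 members and by 16.0% of all genes. With the cyclosporine A table as deposited it was 0.40 (adjusted p = 0.0654 from the limma fits), and 6 members were called lower where 75.2% of all genes were called and 74.9% lower. For Slc34a3 the difference was 1.03 (adjusted p = 0.105) and for Slc5a12 0.56 (adjusted p = 0.122). Without cyclosporine A replicate 4 the difference of Slc5a12 was 0.67 and passed as well (adjusted p = 0.0370), and the Slc5a2 difference did not pass without cyclosporine A replicate 1 or saline replicate 1, 3 or 4 (adjusted p from 0.0658 to 0.0973).

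The vehicle groups themselves differed in the levels of these transporters. The 2 tables were normalized separately and no test was made across them. Ranked from the highest among 13392 genes, Slc5a2 was gene 12189 in saline kidneys and gene 590 in DMSO/PEG kidneys. Slc5a12 was gene 12815 and gene 1191, Slc4a4 gene 11823 and gene 739, and Slc34a3 gene 10908 and gene 891. Slc5a1 took nearly the same place in both, 6287 and 6198. Slc20a2 was gene 5303 and gene 5963, but its FPKM rested on a gene length of 2229 bases with saline and 3726 with DMSO/PEG. Its places in the 2 groups are therefore not alike in measure. Slc34a1 was the highest member in both, at 253 and 26.

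On FPKM scaled to the nuclear fragments alone, which leaves the mitochondrial share out, Slc5a2 was at 1.12 ± 0.673 (SD, n = 4) in saline kidneys and 165 ± 14.5 (SD, n = 6) in DMSO/PEG kidneys, a ratio of 147. The ratio of these means was 124 for Slc5a12, 91.4 for Slc4a4 and 47.2 for Slc34a3. It was 5.52 for Slc9a3, 4.76 for Slc2a2, 3.81 for Slc13a3 and 3.39 for Slc34a1. It was 1.07 for Slc5a1, close to the median of 0.976 over all genes tested in both tables. For Slc20a2 it was 0.839, but its FPKM rested on a gene length of 2229 bases with saline and 3726 with DMSO/PEG. A shorter length raises FPKM, so that ratio gives no direction for Slc20a2. The lengths also differed for Slc5a2 (2096 and 2394), Slc2a2 (2111 and 2668), Slc34a3 (2095 and 2188) and Slc4a4 (4022 and 4620). With cyclosporine A, Slc5a2 was at 6.20 ± 1.59 (SD, n = 4), Slc34a3 at 10.9 ± 6.49 (SD, n = 4) and Slc5a12 at 2.69 ± 1.37 (SD, n = 4) on this scale, which still lay far under the DMSO/PEG levels.

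**Figure D5:**
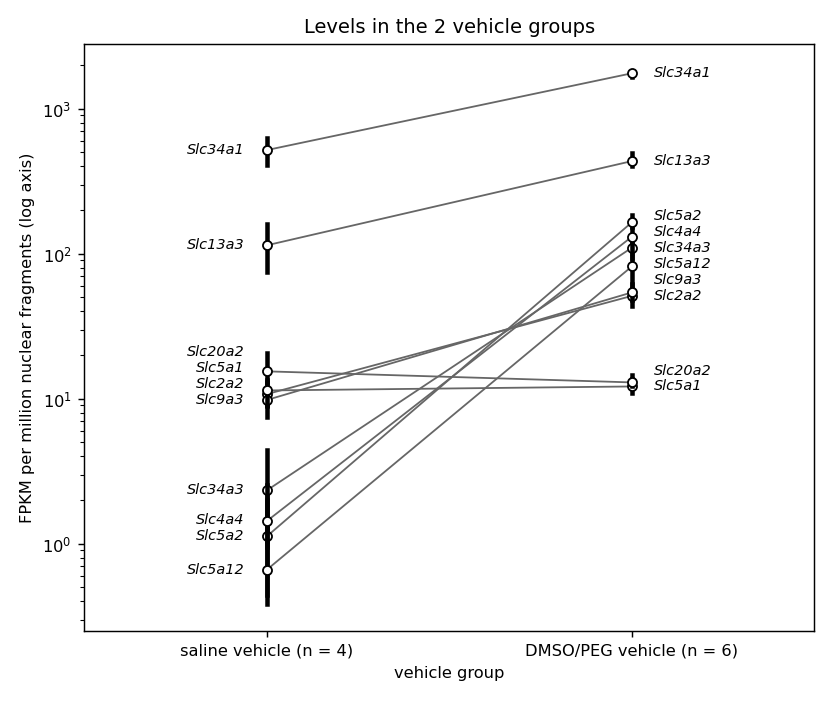
Mean level (circles) and range over libraries (bars) of each transporter in the saline and DMSO/PEG vehicle groups, in FPKM scaled to the nuclear fragments, on a log axis. Slc5a2, Slc5a12, Slc4a4 and Slc34a3 rise steeply from left to right, by ratios of 47.2 to 147. The line of Slc5a1 (1.07) is nearly flat. That of Slc20a2 (0.839) joins FPKM on gene lengths of 2229 bases (saline) and 3726 bases (DMSO/PEG), so its slope gives no direction.

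Proximal tubule markers were present in both tables. Of 26 other proximal tubule markers, none was at 0 in either table. On FPKM scaled to the nuclear fragments their summed level was 11377 to 14478 with saline and 11676 to 12749 with DMSO/PEG vehicle, ranges that overlap. The sums hide opposite differences of abundant markers, such as Slc7a13 (means of 4308 with saline and 1289 with DMSO/PEG) and Gatm (203 and 1647). The ratio of DMSO/PEG over saline on FPKM scaled to the nuclear fragments had a median of 1.57 over the 26 markers. The highest, chosen after their values were seen, were Slc7a7 (39.1), Slc6a19 (26.3) and Slc7a8 (19.6), amino acid carriers. Among the lowest were Slc22a7 (0.280) and Slc7a13 (0.299), both known from the late straight segment. Podocyte markers, which belong to the glomeruli of the cortex, had ratios of 4.01 to 18.7. The part that the make-up of the samples plays in the levels of the transporters was not tested.

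With cyclosporine A, the proximal markers went both ways. Of the 26 proximal markers, Slc7a7 rose by 1.40 in log2 (limma adjusted p = 0.0344), as did Acsm3 by 2.22 (limma adjusted p = 0.0349), a medium-chain acyl-CoA synthetase, and none fell, while their median log2 change was -0.25, with 7 above 0. Groups did not overlap for 3 of them with cyclosporine A higher and for 4 with it lower, where 4.81% and 6.11% of all genes did so. The 4 lower ones, chosen after their values were seen, were Lrp2 (-0.58), Cubn (-0.58), Slc3a1 (-0.59) and Slc7a13 (-0.72 in log2), and none of them passed. On FPKM as deposited Slc7a7 did not pass (0.39, limma adjusted p = 0.159). None of the 6 podocyte markers passed, with 5 above 0, a median log2 change of 0.35, none at 0 in all libraries, and summed levels of 3.03 to 5.57 rescaled FPKM with saline and 4.66 to 12.4 with cyclosporine A. None of the 5 erythroid markers passed, with all 5 above 0, a median log2 change of 1.43, and summed levels of 349.5 to 956 and 557 to 5677 rescaled FPKM. The part of these cell types in the Slc5a2 result was not tested. The mitochondrial share also differed between these groups, and with it as a covariate no gene of the table passed, so its part cannot be told apart from that of the drug.

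The wider set of proximal carriers and their partners gave few calls. Of 26 other apical and basolateral transporters 0 rose and 1 fell with cyclosporine A: Aqp7, a water and glycerol channel of the late proximal tubule, which fell by 0.86 in log2 (SE 0.12, limma adjusted p = 0.0252). Its level was 32.3 ± 0.762 (SD, n = 4) rescaled FPKM with saline and 17.5 ± 3.16 (SD, n = 4) with cyclosporine A. The median log2 change of the 26 was -0.29, where that of all genes was close to 0, and 9 of the 26 had a limma unadjusted p under 0.05, which 16.2% of all genes reached. Groups did not overlap for 7 of the 26 with cyclosporine A lower and for 1 with it higher, against 6.11% and 4.81% of all genes. With tacrolimus 0 of the 26 passed, 1 had an unadjusted p under 0.05 (8.58% of all genes did), and the median was -0.039.

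Of 17 scaffold and accessory proteins, 0 passed with either drug, with 5 and 2 at a limma unadjusted p under 0.05. Here and for the lists that follow, that p was reached by 16.2% of all genes with cyclosporine A and by 8.58% with tacrolimus. The smallest p with cyclosporine A was that of Slc9a3r1, the NHERF1 scaffold that holds Slc9a3 and Slc34a1 at the brush border, with a log2 change of -0.67 (limma adjusted p = 0.131). With tacrolimus it was that of Emb, a partner of monocarboxylate carriers, with -0.27 (limma adjusted p = 0.249). The list of phosphate hormone receptors and vitamin D enzymes also held the receptor genes Drd1, Agtr1a, Agtr1b and Insr. Of its tested genes, 0 of 10 passed with cyclosporine A and 0 of 11 with tacrolimus, with 2 and 5 at an unadjusted p under 0.05. The smallest p belonged to Fgfr1, a receptor for FGF23, with cyclosporine A (log2 change -0.85, limma adjusted p = 0.0545) and to Vdr, the vitamin D receptor, with tacrolimus (-0.37, limma adjusted p = 0.0811). Of 8 proximal transcription factors 0 passed with either drug, with 3 and 1 at an unadjusted p under 0.05. Those with the smallest p with cyclosporine A were Maf (log2 change 0.68 on rescaled FPKM and -0.27 on FPKM as deposited, limma adjusted p = 0.174 and 0.297) and Hnf4g (-0.66, limma adjusted p = 0.185).

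Other marker lists gave these counts. With tacrolimus 6 of 7 distal convoluted and connecting tubule markers fell, among them Calb1, which fell by 3.81 in log2 (limma adjusted p = 1.7e-11), while 0 of the 10 transporters passed. Of the 26 proximal markers 1 rose with tacrolimus, Cyp2e1 by 0.48 (limma adjusted p = 0.0288). None of the tubular injury markers passed with either drug, of 12 tested with cyclosporine A (median log2 change 0.44, 5 at a limma unadjusted p under 0.05) and 13 with tacrolimus (0.13, 2 at an unadjusted p under 0.05). With cyclosporine A, Calb1 fell by 1.85 in log2 as the 1 of 7 distal markers that passed, Umod fell by 1.36 as the 1 of 8 thick ascending limb markers, and Upk1a rose by 1.51 as the 1 of 8 papilla and urothelium markers (limma adjusted p = 0.0252, 0.0491 and 0.0197). With tacrolimus, Egf fell by 0.93 as the 1 of 8 thick ascending limb markers (limma adjusted p = 9.54e-05). Ucp1 fell by 3.33 as the 1 of 7 adipocyte markers (limma adjusted p = 0.000844). No collecting duct, endothelial, podocyte, fibroblast, leukocyte or erythroid marker passed the limma test with either drug, and no urothelial marker did with tacrolimus or adipocyte marker with cyclosporine A. The Umod call with cyclosporine A was lost on leaving out any 1 of the 8 libraries (limma adjusted p from 0.0554 to 0.129). The other cyclosporine A calls were lost on leaving out some single libraries, with limma adjusted p from 0.0196 to 0.118 for Slc7a7, 0.00298 to 0.108 for Acsm3, 0.0215 to 0.0929 for Aqp7, 0.00667 to 0.0929 for Calb1 and 0.0244 to 0.0929 for Upk1a. The Cyp2e1 call with tacrolimus was lost likewise (0.00564 to 0.0847), whereas those of Calb1, Egf and Ucp1 with tacrolimus held without each library in turn.

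As a description of pattern, the tested genes most like 3 of the members were ranked by the lower of 2 Pearson correlations, over the 8 libraries of the cyclosporine A table and the 12 of the tacrolimus table. All libraries of a table share their scaling, and no p is given. For Slc5a2 they were LOC100911295 (0.88 over 8 and 0.85 over 12 libraries), Hoxd3 (0.73 and 0.75) and Trit1 (0.72 and 0.87). For Slc5a1 they were AABR07044001.2 (0.81 and 0.78), Slc29a3 (0.77 and 0.76) and Mdfi (0.89 and 0.71). For Slc34a1 they were Fn3k (0.87 and 0.89), Sertad3 (0.82 and 0.81) and Nagk (0.78 and 0.81). No other member was among these 9 genes.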

How the data were processed

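RNA from whole kidneys was made into libraries with an NEBNext kit, per the labels' protocols. The submitters' processing notes name HISAT2 and rn6. The counter, annotation release and strand setting are not given in the sources used here. The authors deposited FPKM in 2 tables, 1 per drug with its vehicle. Whole fragments were recovered from FPKM and gene length: 100% of values above 0 were whole (within 0.01) in the tacrolimus table and 74.6% in the cyclosporine A table. There 4441 genes (23.5% of those detected) were whole only with a shorter length, Slc5a2, Slc2a2, Slc34a3, Slc20a2 and Slc4a4 among them. Cyclosporine A and saline libraries held 30468799 to 34308987 assigned fragments each. Tacrolimus and DMSO/PEG libraries held 31670202 to 39358485, and their values already carried median-of-ratios scaling. The chi-square per degree of freedom between replicates was 12.2 or more, so no library was taken as a copy.

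A gene was tested with at least 10 fragments at the median library size in as many libraries as the smaller group holds, and 15 in total. limma 3.58.1 (R 4.3.3) was fitted with a trend on log2(FPKM + 1) with a pseudocount of 1, with Benjamini-Hochberg adjustment over all genes tested at 0.05. The difference between drugs used both standard errors with Satterthwaite degrees of freedom. The pipeline was tested on simulated data. Alternatives were other scales, a pseudocount of 0.1, no filter, a replicate block, array weights, a mitochondrial covariate and leaving out each library.

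The members and gene lists were chosen with earlier results of these data known. Named genes were the members, list genes that passed (up to 5 a list, or the 2 with the smallest p, of which those that bear on the transporters are given) and, for 3 members, the 3 genes most alike. The labels give only replicate numbers, and likeness between libraries of the same number neither showed pairing nor could exclude it.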

Additional observations from a re-analysis of the deposited data

Results flagged for a closer look

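Of 40 groups of a member's values tested for a single sample far from the others, 4 held one, where chance gives about 1 in 20. The Slc5a1 level in DMSO/PEG vehicle replicate 6 was 12.7 FPKM, above the other 5 at 9.85 to 10.5. The Slc2a2 level in tacrolimus replicate 2 was 30.5 FPKM, under the other 5 at 42.0 to 48.5. The Slc5a12 level in DMSO/PEG vehicle replicate 3 was 52.1 FPKM, under the other 5 at 71.5 to 80.2. The Slc4a4 level in saline replicate 2 was 0.630 rescaled FPKM, above the other 3 at 0.233 to 0.281. The difference between drugs in Slc5a2 is listed because its own test passed, at 0.87 in log2 (adjusted p = 0.0280 from the 2 limma fits).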

How the results depend on the processing

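With cyclosporine A, 82 genes and 1 member passed. These counts were 10911 and 7 on FPKM as deposited, 1 and 0 without the filter, 6 and 0 with a replicate block, 0 and 0 with the mitochondrial share as covariate (418 genes at a limma unadjusted p under 0.05), 149 and 1 with array weights, 68 and 0 with a pseudocount of 0.1, and 1 to 139 and 0 to 1 on leaving out each library. With tacrolimus 47 genes passed, 77 with array weights and 44 with the block, and 0 members under every alternative run. For the difference 216 genes and 1 member passed, 10068 and 6 on the deposited scale, 180 and 1 with the block, and 27 to 272 and 0 to 2 on leaving out each library. The cause of these shifts was not tested. The replicate numbers gave no clear sign of pairing: 1 of 4 and 2 of 6 vehicle libraries deviated most like the drug library of the same number. So few libraries cannot exclude pairing. With the replicate block Slc5a2 had a limma adjusted p of 0.0793, and for the difference an adjusted p of 0.0398 from the 2 limma fits.

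Among the members and the genes named for cyclosporine A, log2 changes that turned sign were Slc4a4 (-0.11), Maf (-0.27), Clu (-0.017) and Scnn1g (-0.75) on FPKM as deposited. Of genes named for tacrolimus, Vdr (0.067 to -1.02), Slc12a3 (0.27 to -0.89), Klhl3 (0.24 to -0.37), Atp6v1g3 (0.35 to -0.96), Col1a1 (0.36 to -0.096) and C1qa (0.30 to -0.83) also turned there with cyclosporine A. With the mitochondrial covariate, sign turns among the former were Slc2a2 (0.43), Slc34a1 (1.00), Slc20a2 (0.20), Slc13a3 (0.90), Umod (0.058), Tie1 (0.029) and Wt1 (-0.022). With array weights these were Slc2a2 (0.19), Slc34a1 (0.18) and, with tacrolimus, Slc20a2 (-0.013). Slc34a1 was at 0.082 per nuclear fragments. The Slc2a2 difference was -0.83 on the deposited scale and -0.030 with a pseudocount of 0.1. Leaving out 1 library gave, with cyclosporine A, Slc2a2 from -0.17 to 0.32 and Slc34a1 from -0.25 to 0.23, and with tacrolimus Slc2a2 from -0.12 to 0.0080, Slc20a2 from -0.017 to 0.041 and Slc13a3 from -0.066 to 0.039. For the difference it gave Slc2a2 from -0.087 to 0.40 and Slc34a1 from -0.28 to 0.20. Of these genes Umod alone passed the threshold on rescaled FPKM. In the alternatives run, Slc5a2, Slc34a3 and Slc5a12 kept a log2 change above 0 with cyclosporine A. Depth limits these 3, with 11 to 95 fragments per saline library.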
